A study of Mus musculus with 40 samples.

Results

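The genes of creatine cycling were followed through brown adipose tissue (BAT) RNA-seq of mice with a constitutively active receptor or a drug that engages the same second messenger. The 7 genes were taken by symbol from a table of raw exon counts for 20295 genes, and all 7 were present: Slc6a8, Gatm, Gamt, Ckb, Ckmt1, Ckmt2 and Alpl. Of these, 6 were among the 13277 genes with enough counts for testing, and Ckmt1 was not. The 40 libraries fell into 8 groups of 5 from male mice, all housed at 29 °C, which is thermoneutral for mice. C-3BO mice carried the Gpr3 TTG allele, a Gpr3 transgene behind a floxed stop, together with Ucp1-Cre, so that Gpr3 was overexpressed in brown adipocytes and in any other cell in which the Ucp1 promoter had been active. Their control littermates carried either the allele or Cre but not both, and both genotypes were 13 to 19 weeks old. The injected mice, labelled wildtype, were 15-week-old littermates from a related line with an inducible Cre, and received CL-316,243 (CL), an agonist of the β3-adrenergic receptor, at 1 mg/kg daily for 9 days or saline at 10 µL/g. Each of the 4 conditions was sampled on chow and after 7 days of high-fat diet (HFD, 60% of energy from fat). The resulting groups are called chow control, chow C-3BO, HFD control, HFD C-3BO, chow saline, chow CL, HFD saline and HFD CL.

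Creatine is made in a pair of steps. Gatm transfers an amidino group from arginine to glycine, giving guanidinoacetate, and Gamt methylates guanidinoacetate with S-adenosylmethionine. Slc6a8 imports creatine from outside the cell with sodium and chloride. Creatine kinases (cytosolic Ckb, ubiquitous mitochondrial Ckmt1, sarcomeric mitochondrial Ckmt2, and Ckm of skeletal muscle) exchange phosphate between ATP and creatine. Alpl, tissue-nonspecific alkaline phosphatase, hydrolyses phosphate esters and has been described in thermogenic fat as hydrolysing phosphocreatine, which together with creatine kinase would spend ATP and release heat. Ckb has been described as the main creatine kinase of that cycle in brown fat.

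Libraries held between 849126 and 15260516 counts, and the lowest totals were those of HFD saline (849126 to 7284129) and HFD CL (3391730 to 6028764). Values below are CPM, counts scaled to a common library size with TMM factors. A count of 0 allowed up to 0.206 CPM in the library with the largest TMM-scaled total, HFD control replicate 3. In the shallowest library it allowed up to 3.01 CPM, counting error only in both. Gpr3 was at 266 to 463 CPM in chow C-3BO and 688 to 918 CPM in HFD C-3BO and at most 0.744 CPM in the control libraries, so the targeted gene followed the labels of these groups. Among the injected mice, the library labelled chow CL replicate 3 stood apart with 99 Gpr3 counts (9.15 CPM), and chow CL replicate 5 had 1644 CPM of Ucp1 where the other 4 CL libraries on chow had 5943 to 8986. Its Elovl3 level, 102 CPM, remained well above the 5.11 ± 3.40 CPM of chow saline (mean ± SD, n = 5). The liver transcript Alb was at most 1.62 CPM in the chow groups and in HFD control, but at 62.2 to 191 CPM in every HFD saline and HFD CL library and at 294 and 272 CPM in HFD C-3BO replicates 4 and 5. The epididymal transcript Lcn8 was at 0 in the same chow groups and HFD control, at 6.02 to 31.8 CPM in HFD saline and HFD CL, and reached 38.9 CPM in HFD C-3BO. Skeletal muscle transcripts ran high in chow control, chow C-3BO and part of chow saline, and their values stand beside Ckmt2. The defining brown adipocyte transcript Ucp1 was at 1116 CPM or more in all 40 libraries.

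In the mm9 build that the counts used, Slc6a8 spans chrX:70918472-70927839 on the plus strand, Gatm chr2:122420209-122437013, Gamt chr10:79720896-79723713, Ckb chr12:112907566-112910549, Ckmt2 chr13:91992992-92016490 and Alpl chr4:137297646-137352299, all 5 on the minus strand. The counts are over exons, whose summed length was 3964 bases for Slc6a8, 2357 for Gatm, 944 for Gamt, 1478 for Ckb, 1486 for Ckmt2 and 2524 for Alpl. No other listed gene overlapped these 6. Ckmt1, at chr2:121184377-121189473 on the plus strand, overlaps Strc on the opposite strand, and the library kit does not mark strand, so reads of the pair cannot be told apart there.

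Alpl and Gamt were the members that passed the test in each of the 4 comparisons of C-3BO or CL with its own control, in opposite directions, and their promoters are shown for that reason. RefSeq (GRCm38.p6) gives Alpl 2 start sites 29909 bases apart, and the counts are summed per gene, so they do not say which start was used. Each window runs from 250 bases before to 50 bases after a start, in the direction of transcription. Alpl upstream lies at chr4:137796335-137796634, Alpl downstream at chr4:137766426-137766725 and Gamt at chr10:80260963-80261262, all on the minus strand. Capitals mark matches, on either strand, to the GC box (GGGCGG), the CCAAT box (CCAAT), the TATA box (TATAAA), the core of the cAMP response element (TGACG, which the full element TGACGTCA contains) or the core of nuclear receptor sites (AGGTCA).
Alpl upstream: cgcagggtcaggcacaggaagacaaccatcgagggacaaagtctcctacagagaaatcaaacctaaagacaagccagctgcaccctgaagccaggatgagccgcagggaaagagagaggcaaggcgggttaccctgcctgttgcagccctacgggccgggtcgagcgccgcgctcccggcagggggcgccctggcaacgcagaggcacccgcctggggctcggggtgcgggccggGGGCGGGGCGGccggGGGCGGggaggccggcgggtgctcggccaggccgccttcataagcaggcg
Alpl downstream: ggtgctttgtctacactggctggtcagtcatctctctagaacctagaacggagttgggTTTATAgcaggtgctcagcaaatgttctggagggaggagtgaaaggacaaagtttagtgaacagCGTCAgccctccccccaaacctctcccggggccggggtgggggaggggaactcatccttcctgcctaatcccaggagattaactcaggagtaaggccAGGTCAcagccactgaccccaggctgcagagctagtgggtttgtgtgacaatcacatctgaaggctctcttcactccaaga
Gamt: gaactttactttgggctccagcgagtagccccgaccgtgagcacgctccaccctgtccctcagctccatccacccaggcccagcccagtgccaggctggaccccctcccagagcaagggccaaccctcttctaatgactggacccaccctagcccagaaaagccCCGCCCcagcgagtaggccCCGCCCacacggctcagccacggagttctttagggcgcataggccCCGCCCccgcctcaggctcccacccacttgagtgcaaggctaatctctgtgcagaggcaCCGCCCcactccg
The upstream Alpl window held 3 GC boxes, a pair of them sharing a base, and none of the other motifs. The downstream window held 1 core of the cAMP response element, 1 nuclear receptor core and 1 TATA box, and the Gamt window 4 GC boxes. Over 32851 mouse promoter windows of 300 bases, 35.7% held a GC box, 37.4% a CCAAT box, 20.8% the core of the cAMP response element, 16.3% the nuclear receptor core, 13.6% a TATA box and 1.79% the full cAMP response element. The Ckb window, at chr12:111672289-111672588, held 2 CCAAT boxes and 1 TATA box. Of the 7 genes, 6 had an entry, and Slc6a8 did not. A match describes the letters only, and the windows are in another build than the counts.

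In C-3BO mice on chow, Alpl rose while Slc6a8, Gamt, Ckb and Ckmt2 fell. Of the 6 tested members 1 was higher, beside 15.8% of all genes tested, and 4 were lower, beside 15.9%. On HFD the C-3BO mice had 1 member higher (19.3% of all genes) and 2 lower (15.5%), again Alpl up with Slc6a8 and Gamt down. Between these groups 7 of 10 endothelial markers were lower (summed level 2111 to 2793 CPM in HFD control, 1757 to 1972 CPM in HFD C-3BO). The summed Schwann cell and nerve list was at 271 to 410 CPM and 425 to 636 CPM, with 1 of 7 tested markers higher and 1 lower, and the part of these cells in the members' values was not tested. CL on chow gave 1 higher (9.16%) and 2 lower (6.13%), namely Alpl up with Gamt and Ckmt2 down. CL on HFD gave 1 higher (12.7%) and 3 lower (10.8%), with Slc6a8, Gamt and Gatm as the lower ones. The test was edgeR's quasi-likelihood test with Benjamini-Hochberg adjustment over all 13277 genes, and a gene was called at an adjusted p under 0.05. The median log2 fold change of all genes was within 0.04 of 0 in these comparisons. In a bulk sample, fewer cells of a type and less RNA per cell cannot be told apart.

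**Figure D1:**
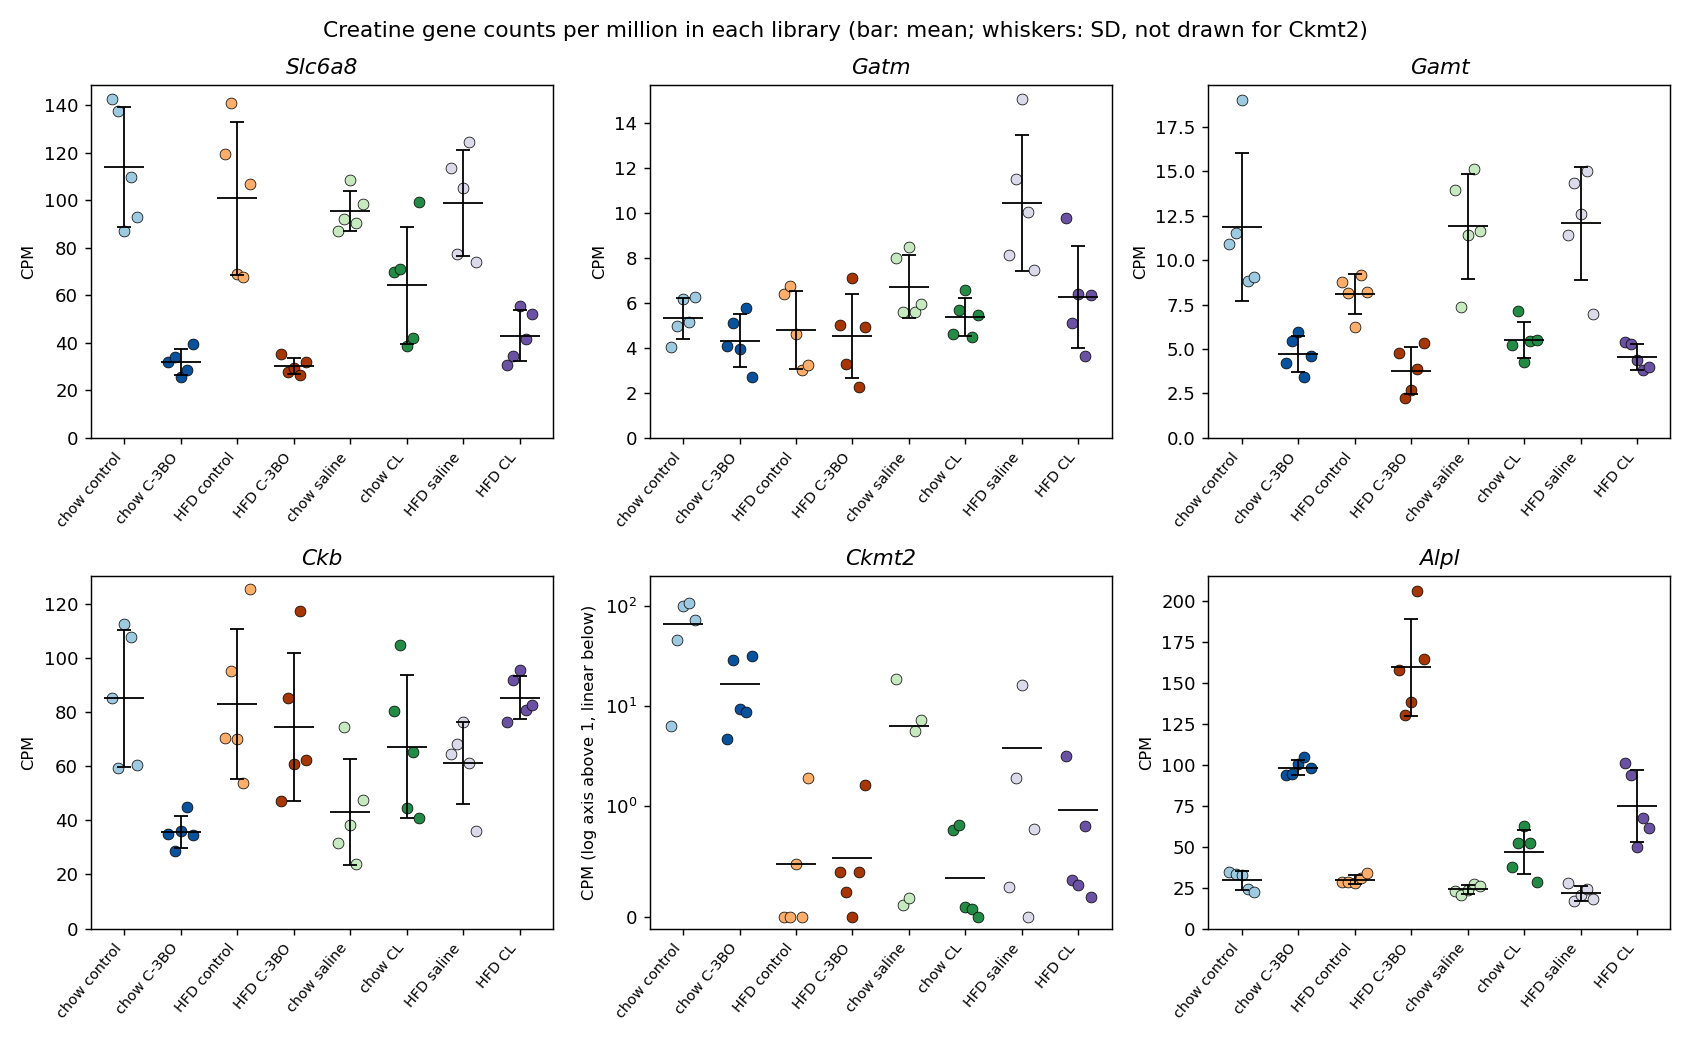
CPM (y axis) of the 6 tested creatine genes in each library, by group (x axis), with the mean as a bar and the SD as whiskers, except for Ckmt2, which has no whiskers and an axis that is logarithmic above 1 CPM and linear below. Alpl is highest and Slc6a8 lowest in the C-3BO groups, and Ckmt2 spans from 0 to 108 CPM.

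Slc6a8, the creatine importer, was at 143, 138, 87.1, 110 and 93.0 CPM in the chow control libraries and at 31.8, 34.1, 25.4, 28.6 and 39.7 CPM in chow C-3BO. On HFD the control libraries were at 119, 141, 68.8, 67.8 and 107 CPM, and the C-3BO libraries at 35.1, 27.8, 29.4, 26.5 and 31.7 CPM. Every C-3BO library was below every control library on both diets. As mean ± SD, chow control was at 114 ± 25.3 CPM and chow C-3BO at 31.9 ± 5.43 CPM. HFD control was at 101 ± 32.0 CPM and HFD C-3BO at 30.1 ± 3.42 CPM. The log2 fold change was -1.84 ± 0.21 (SE, adjusted p = 3.7e-08) on chow and -1.74 ± 0.22 (adjusted p = 7.0e-08) on HFD. The injected mice on chow gave 87.2, 92.2, 108, 90.2 and 98.5 CPM after saline and 69.7, 71.1, 38.5, 42.2 and 99.2 CPM after CL. Only CL replicate 5, the library with low Ucp1, overlapped the saline range. The difference of -0.57 ± 0.20 did not pass with all libraries (adjusted p = 0.051) or in 12 of 19 alternative fits (adjusted p up to 0.17). It passed in the other 7, among them without CL replicate 5 (-0.79, adjusted p = 0.0063) and with DESeq2 (adjusted p = 0.034). On HFD, saline gave 113, 77.3, 105, 124 and 74.1 CPM and CL gave 30.8, 34.5, 55.5, 41.8 and 52.0 CPM, with no overlap, a fall of -1.19 ± 0.22 (adjusted p = 8.3e-05). In the order of group means, the 4 control groups (114 to 95.3 CPM) came first, then chow CL, HFD CL, chow C-3BO and HFD C-3BO, and each range overlapped the next.

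Gatm, the first enzyme of creatine synthesis, was low in all groups, with means between 4.32 and 10.4 CPM, and passed the test in 1 of the 4 comparisons. In chow control it was at 4.05 to 6.26 CPM and in chow C-3BO at 2.72 to 5.76 CPM, a difference of -0.28 ± 0.26 (adjusted p = 0.44). On HFD the C-3BO difference was -0.08 ± 0.26 (adjusted p = 0.85), and CL on chow gave -0.33 ± 0.25 (adjusted p = 0.41). The exception was CL on HFD: the saline libraries were at 8.13, 11.5, 15.04, 10.0 and 7.46 CPM and the CL libraries at 9.75, 5.09, 6.40, 3.63 and 6.36 CPM. The groups overlapped through CL replicate 1, and the fall of -0.75 ± 0.27 (adjusted p = 0.037) was lost when HFD CL replicate 2, 3, 4 or 5 or HFD saline replicate 2 or 3 was left out, with adjusted p between 0.054 and 0.17, and with the replicate number as a block (-0.70, adjusted p = 0.084). HFD saline was also the highest group for Gatm, 2.18-fold above HFD control (adjusted p = 0.0053), with no overlap. The summed level of the macrophage marker list was 361 to 872 CPM in HFD saline, 133 to 278 CPM in HFD control and 156 to 459 CPM in HFD CL. Between those controls 14 of 14 tested liver markers were also higher in HFD saline, while none differed between HFD CL and HFD saline. The part of these cells in the Gatm level was not tested.

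Gamt, which completes creatine synthesis, fell in all 4 comparisons. In chow control it was at 10.9, 11.5, 19.03, 8.82 and 9.05 CPM, and in chow C-3BO at 4.22, 5.44, 5.97, 3.43 and 4.58 CPM. On HFD the control libraries gave 8.78, 8.18, 6.25, 9.17 and 8.22 CPM and the C-3BO libraries 4.76, 2.26, 2.69, 3.87 and 5.33 CPM. All C-3BO libraries were below all controls. The log2 fold change was -1.32 ± 0.22 (adjusted p = 2.3e-05) on chow and -1.14 ± 0.24 (adjusted p = 0.00026) on HFD, and -1.34 (adjusted p = 0.00045) without HFD C-3BO replicates 4 and 5, those with liver transcripts. Of the liver markers 13 of 14 were higher in HFD C-3BO than in HFD control. Saline and CL on chow gave 13.9, 7.35, 11.4, 15.1 and 11.6 CPM against 5.21, 7.11, 4.25, 5.48 and 5.52 CPM. On HFD they gave 11.4, 14.3, 12.6, 15.04 and 6.99 CPM against 5.38, 5.26, 4.36, 3.80 and 4.00 CPM. Again no CL library reached the saline range, with a fall of -1.11 ± 0.22 (adjusted p = 0.00040) on chow and -1.36 ± 0.24 (adjusted p = 7.0e-05) on HFD. Alb was present in every HFD saline and HFD CL library, at 62.2 to 170 and 97.2 to 191 CPM. The part of liver transcripts in the Gamt difference between these groups was not tested. Restricting chow saline to replicates 2 and 3, picked after seeing the data as low in muscle transcripts, left -0.78 (adjusted p = 0.053).

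Ckb, the cytosolic creatine kinase, passed the test in 1 of the 4 comparisons, C-3BO on chow. The chow control libraries were at 85.0, 59.2, 113, 108 and 60.6 CPM and the chow C-3BO libraries at 34.8, 28.6, 36.0, 44.8 and 34.6 CPM. They did not overlap, and the fall was -1.25 ± 0.27 (adjusted p = 0.00046). On HFD the controls were at 70.5, 95.0, 70.1, 53.9 and 125 CPM and the C-3BO libraries at 47.2, 85.0, 60.9, 117 and 62.3 CPM, with a difference of -0.16 ± 0.26 (adjusted p = 0.68). The diets' C-3BO effects differed by 1.09 ± 0.37, which did not pass the test of the difference (adjusted p = 0.12). CL moved Ckb the other way in value. On chow, saline gave 31.4, 74.5, 38.1, 23.8 and 47.5 CPM and CL 80.3, 105, 44.7, 65.2 and 40.9 CPM, a difference of 0.64 ± 0.26 (adjusted p = 0.095) that passed without chow CL replicate 5 (0.77, adjusted p = 0.041) or without chow saline replicate 2 (0.91, adjusted p = 0.020). On HFD, saline gave 64.6, 68.2, 76.3, 61.2 and 36.2 CPM and CL 76.3, 91.6, 95.4, 80.7 and 82.5 CPM. The lowest CL library lay just above the highest saline library, so the groups did not overlap, but the difference of 0.47 ± 0.27 did not pass (adjusted p = 0.22). It passed in 2 of 18 alternative fits, with the replicate number as a block (0.497, adjusted p = 0.016) and with the libraries of the comparison alone (adjusted p = 0.035).

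Ckmt2, the sarcomeric mitochondrial creatine kinase, had the widest spread of the members. It was at 6.28, 45.3, 100, 108 and 71.9 CPM in chow control and 4.67, 28.7, 9.32, 8.63 and 31.6 CPM in chow C-3BO. In chow saline it was at 18.5, 0.111, 0.179, 5.58 and 7.23 CPM, and in the other 5 groups it was at or below 3.19 CPM in all libraries except HFD saline replicate 3, at 16.1 CPM. The called differences were -1.996 ± 0.70 for C-3BO on chow (adjusted p = 0.026) and -4.25 ± 1.15 for CL on chow (adjusted p = 0.0095), both with overlapping groups. The C-3BO call was lost with DESeq2 (adjusted p = 0.21) and without chow C-3BO replicate 1, 3 or 4 or chow control replicate 3 or 4 (adjusted p of 0.064 to 0.081), and the CL call without chow saline replicate 1 (-3.36, adjusted p = 0.060). The same libraries carried skeletal muscle transcripts. Ckm, muscle creatine kinase, was at 91.9 to 1354 CPM in chow control, 43.6 to 430 in chow C-3BO and 254, 4.90, 1.16, 122 and 188 in chow saline. Over the 40 libraries Ckmt2 correlated at r = 0.964 with the mean log2 level of the 15 muscle markers, and at 0.941 after removal of the group means, a description over libraries that share these transcripts. The other tested members had r between -0.13 and 0.30 with that score. With the score as a covariate, Ckmt2 gave -0.21 (adjusted p = 0.52) for C-3BO and -0.42 (adjusted p = 0.60) for CL on chow. Chow saline was also restricted to replicates 2 and 3, picked after seeing the data for their low muscle transcripts. The CL difference then turned to 1.01 (adjusted p = 0.85). Those libraries held 0.111 and 0.179 CPM of Ckmt2, so this fit could not show a fall. The summed muscle list ranged from 1081 to 12969 CPM in chow control, from 582 to 5036 CPM in chow C-3BO, from 50.96 to 3325 CPM in chow saline and from 59.4 to 245 CPM in chow CL. No muscle marker was at 0 in all libraries of a group. In chow C-3BO 2 of the 15 were called lower, near the 15.9% of all genes, and in chow CL 12 of the 15, beside 6.13%.

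**Figure D2:**
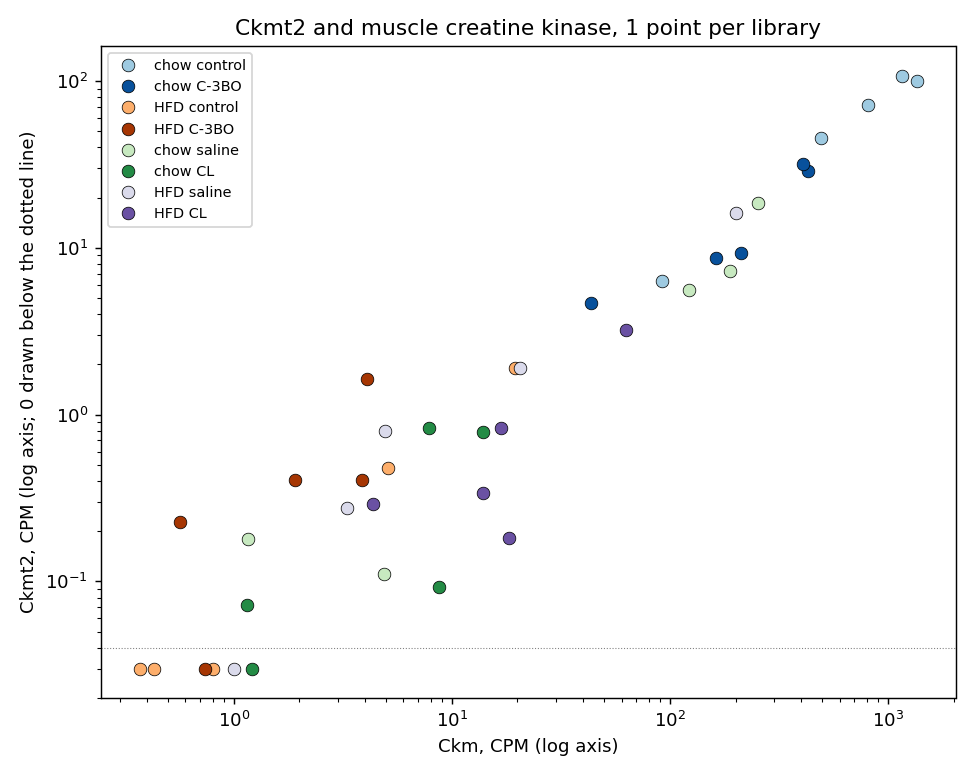
Ckmt2 (y axis) against Ckm (x axis), both in CPM on log axes, 1 point per library, with libraries at 0 Ckmt2 below the dotted line. Libraries rich in Ckm were rich in Ckmt2 whatever their group, from HFD control at the low end to chow control at the high end.

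Ckmt1, the ubiquitous mitochondrial creatine kinase, had between 0 and 5 counts in any library and 32 in all 40. It had 0 counts in all 5 chow C-3BO libraries and a summed 8 counts in chow control, 1 in HFD control, 1 in HFD C-3BO, 2 in chow saline, 12 in chow CL, 2 in HFD saline and 6 in HFD CL. The exact permutation test, two-sided, gave p of 0.063 or more in all 8 comparisons of means (0.17 for C-3BO and 0.063 for CL on chow), where the smallest p possible is 0.00794. A difference was not detectable at this depth.

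Alpl, the phosphatase, rose in each of the 4 comparisons. The chow control libraries were at 34.4, 33.1, 32.7, 24.2 and 22.5 CPM and the chow C-3BO libraries at 94.0, 94.4, 101, 105 and 98.1 CPM. On HFD the controls were at 28.2, 28.6, 28.1, 30.9 and 34.0 CPM and the C-3BO libraries at 158, 130, 139, 206 and 165 CPM. The groups did not overlap, and the chow C-3BO libraries differed among themselves by less than the HFD C-3BO libraries did. The rise was 3.34-fold (log2 1.74 ± 0.17, adjusted p = 1.5e-09) on chow and 5.33-fold (2.41 ± 0.17, adjusted p = 2.3e-13) on HFD. After saline and CL on chow, Alpl was at 22.7, 20.6, 23.7, 27.5 and 26.2 CPM and at 37.5, 52.5, 62.4, 52.3 and 28.5 CPM. On HFD the values were 28.0, 16.7, 20.7, 24.1 and 17.8 CPM and 101, 93.7, 49.7, 67.5 and 61.6 CPM. All CL libraries were above all saline libraries, chow CL replicate 5 by the least, and the rise was 1.93-fold (0.95 ± 0.17, adjusted p = 0.00017) on chow and 3.55-fold (1.83 ± 0.19, adjusted p = 3.6e-09) on HFD. In the order of means, HFD C-3BO was clear of the next group, chow C-3BO, while each lower group's range overlapped its neighbour. The calls held in every alternative fit, with log2 fold changes of 1.55 to 1.81, 2.24 to 2.48, 0.81 to 1.08 and 1.68 to 1.98 in the order given.

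**Figure D3:**
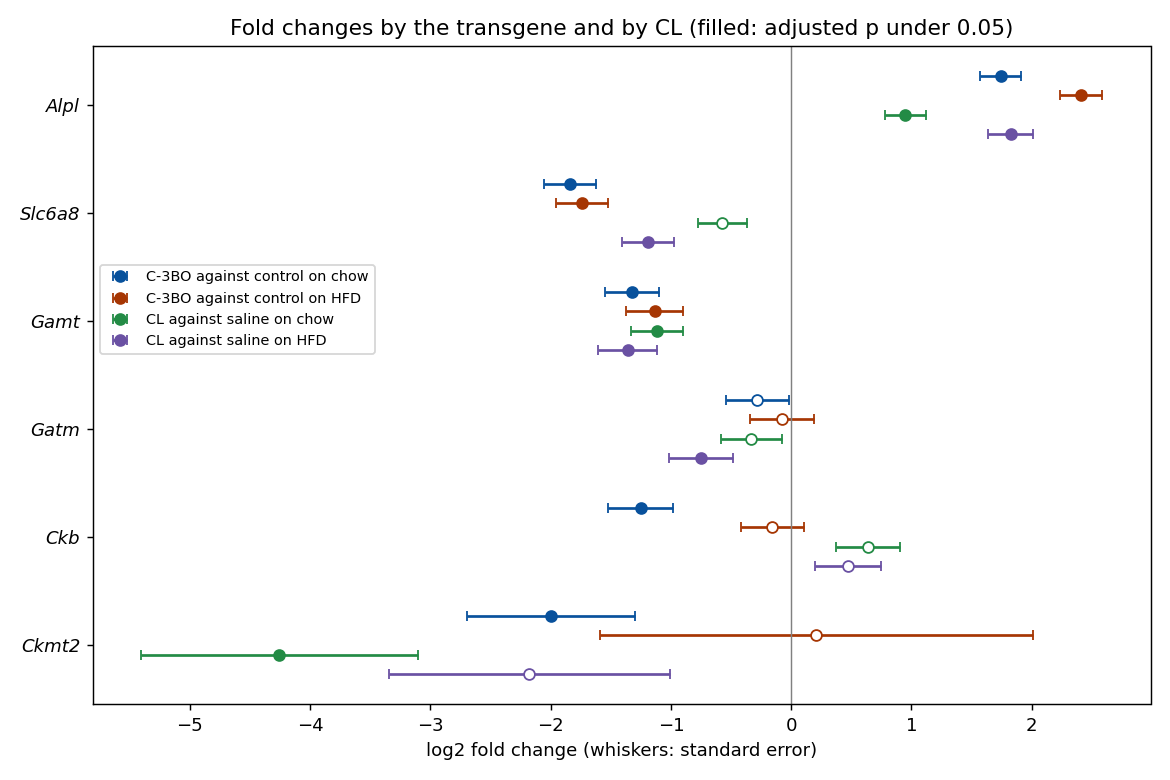
Fitted log2 fold change (x axis, whiskers for the standard error) of the 6 tested members (y axis) for C-3BO against control and CL against saline on each diet, filled where the adjusted p was under 0.05. Alpl lies right of 0 and Gamt left of 0 in all 4 comparisons, and Ckmt2 has the longest whiskers.

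The transgene and the drug were compared with each other through the difference of their effects on the same diet, which share no control libraries. On chow 3 of the 6 members differed, beside 6.24% of all genes tested. Ckb differed by -1.89 ± 0.38 (adjusted p = 0.0016), falling with C-3BO where its value after CL was higher. Slc6a8 fell further with C-3BO (-1.27 ± 0.29, adjusted p = 0.0065), and Alpl rose further (0.79 ± 0.24, adjusted p = 0.041). The Alpl difference did not pass in 11 of 28 alternative fits, with adjusted p up to 0.086, namely with the block and without chow C-3BO replicate 1, 2, 4 or 5, chow CL replicate 1 or 5, chow control replicate 4 or 5 or chow saline replicate 4 or 5. On HFD no member's effects differed (1.8% of all genes did), with -0.63 ± 0.38 for Ckb, -0.55 ± 0.30 for Slc6a8 and 0.59 ± 0.25 for Alpl, at adjusted p of 0.49, 0.44 and 0.27, and unadjusted p of 0.10, 0.077 and 0.023. The C-3BO effect differed between diets for 0 members (2.09% of all genes), with 0.67 ± 0.24 for Alpl (adjusted p = 0.14). The CL effect differed between diets for 0 members as well (0.0151% of all genes), with 0.88 ± 0.25 for Alpl (adjusted p = 0.21). DESeq2 also called 0 members in these 3 contrasts. At an unadjusted p under 0.05, edgeR had 1 member, Alpl, in the comparison on HFD, 2 between diets under C-3BO (Alpl at 0.0076 and Ckb at 0.0057) and 2 between diets under CL (Alpl at 0.0012 and Slc6a8 at 0.043).

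Diet was also compared within each of the 4 conditions. The tests of a difference between these diet effects are those given above, which called 0 members. In control mice HFD gave 0 higher (15.4% of all genes) and 2 lower (17.5%). These were Ckmt2 (-7.37 ± 1.03, adjusted p = 8.2e-07), with 23 counts in the 5 HFD control libraries together against 3508 in chow control, and Gamt (-0.54 ± 0.21, adjusted p = 0.043). The Ckm counts fell alongside from 40885 to 258, and all 15 muscle markers were lower. With the muscle score as covariate Ckmt2 gave -0.28 (adjusted p = 0.77) and Gamt -0.15 (adjusted p = 0.81). That score ran from 5.53 to 9.28 in chow control and from -0.24 to 3.96 in HFD control. The ranges did not overlap, so this fit cannot separate diet from muscle transcripts. It called 1766 genes, beside 2044 higher and 2321 lower without the score. The Gamt call rested on several libraries and was lost, for one, without chow control replicate 3, its highest (-0.31, adjusted p = 0.26). It was lost as well without chow control replicate 2 or HFD control replicate 1, 2, 3 or 5, at adjusted p of 0.056 to 0.12. In C-3BO mice HFD gave 2 higher (13.5%) and 1 lower (12.2%). Ckb rose 2.08-fold (1.05 ± 0.27, adjusted p = 0.0037) and Alpl 1.62-fold (0.70 ± 0.17, adjusted p = 0.0019), both without overlap, and without replicates 4 and 5 the values were 0.85 and 0.53 (adjusted p = 0.042 and 0.041). Of the endothelial markers 9 of 10 were also higher, with a summed level of 716 to 1405 CPM in chow C-3BO and 1757 to 1972 CPM in HFD C-3BO. The summed Schwann cell and nerve list went from 247 to 266 CPM to 425 to 636 CPM, with 1 of its 7 tested markers higher. In control mice Ckb was at -0.04 ± 0.26 and Alpl at 0.02 ± 0.17, neither of them called. Endothelial markers were higher on HFD in control mice (9 of 10), CL mice (8 of 10) and saline mice (3 of 10) too. The part of endothelial and nerve cells in the Ckb and Alpl values was not tested in any of these comparisons. In C-3BO mice Ckmt2 was lower by -5.17 ± 1.14 (adjusted p = 0.00083), with 14 of the 15 muscle markers lower. With the muscle score as covariate it was at 0.67 (adjusted p = 0.45). The score ran from 4.74 to 7.75 in chow C-3BO and 0.24 to 2.71 in HFD C-3BO, again without overlap. In saline mice no member passed (7.45% of all genes were higher and 8.04% lower), and the smallest adjusted p was 0.081, for Gatm, with 0 calls by DESeq2 and, unadjusted, a p of 0.016 for Gatm alone under 0.05. In CL mice 1 was higher (10.9%) and 1 lower (12.7%), Alpl at 0.69 ± 0.17 (adjusted p = 0.0028) and Slc6a8 at -0.59 ± 0.21 (adjusted p = 0.039), the latter lost in 11 of 18 alternative fits and at -0.38 (adjusted p = 0.21) without chow CL replicate 5. It was lost as well without chow CL replicate 1 or 2 or HFD CL replicate 1, 2 or 4, at adjusted p of 0.069 to 0.12. In both CL and saline mice, 13 of 14 liver markers and 3 of 3 epididymal markers were higher on HFD. Library totals were 3391730 to 6028764 counts in HFD CL and 9419056 to 15260516 in chow CL. Diet cannot be told apart from these differences in the injected mice, and their part in the members' values was not tested.

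The controls of the transgenic and the injected mice were compared after the values had been seen, since Ckb differed between them. They differ in injections, line, age and cohort, which cannot be told apart. On chow, 2 members were lower in saline than in control mice, beside 15.2% of all genes called in either direction. Ckb was at -0.98 ± 0.26 (adjusted p = 0.0090), and Ckmt2 at -3.40 ± 0.75 (adjusted p = 0.0019) with 11 of the 15 muscle markers lower. With the muscle score as covariate neither passed, at -0.84 for Ckb (adjusted p = 0.091) and -0.49 for Ckmt2 (adjusted p = 0.26). Ckb had r = -0.13 with the score over the 40 libraries and 0.11 after removal of the group means. The part of muscle transcripts in the Ckb difference was not tested beyond that covariate fit. Among all genes, 2021 were called without the score and 1007 with it. On HFD 1 member differed, Gatm as given above, beside 7.52% of all genes. The chow controls against which C-3BO lowered Ckb had a mean of 85.0 ± 25.2 CPM, and those against which CL was set 43.1 ± 19.6 CPM, while the chow C-3BO and chow CL libraries were at 35.8 ± 5.83 and 67.2 ± 26.4 CPM (SD, n = 5 each).

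Levels of different genes were set side by side only per kilobase of exon. Ckb had the highest group mean of the members in the 6 groups without the transgene, at 57.5 ± 17.1 CPM per kilobase in chow control and 57.7 ± 5.36 in HFD CL. In chow saline its 29.2 ± 13.3 was within its own SD of the 24.0 ± 2.12 of Slc6a8, and in chow control Ckmt2 stood at 44.6 ± 28.0, so the order of these pairs does not hold beyond their spread. In chow C-3BO and HFD C-3BO Alpl took that place, at 39.0 ± 1.80 and 63.2 ± 11.7 CPM per kilobase against 24.2 ± 3.94 and 50.4 ± 18.6 for Ckb. On HFD the Alpl mean was within the SD of Ckb, so only the chow C-3BO order holds beyond the spread. Slc6a8 was at 28.8 ± 6.38 in chow control and 8.05 ± 1.37 in chow C-3BO, and Gatm stayed between 1.83 and 4.42 CPM per kilobase in all groups. The ratio of Alpl to Slc6a8, both per kilobase, put the opposite movements of the phosphatase and the transporter in a number for each library. It was 0.41 ± 0.10 in chow control, 0.51 ± 0.17 in HFD control, 0.40 ± 0.06 in chow saline and 0.34 ± 0.04 in HFD saline. It was 4.97 ± 0.98 in chow C-3BO, 8.45 ± 2.15 in HFD C-3BO, 1.39 ± 0.85 in chow CL and 3.05 ± 1.61 in HFD CL. Every C-3BO library was at 3.88 or more and no control or saline library was above 0.716, while chow CL reached down to 0.451 within the range of chow saline.

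**Figure D4:**
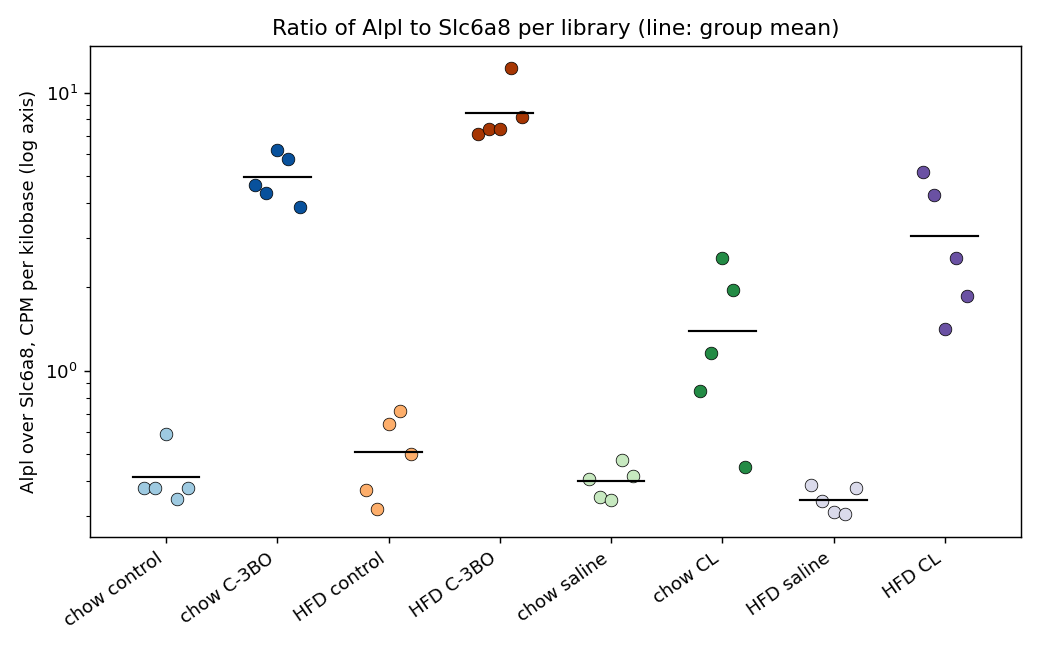
Ratio of Alpl to Slc6a8, each in CPM per kilobase of exon (y axis, logarithmic), in each library by group (x axis), with a line at the group mean. Control and saline libraries lie below 0.716, C-3BO libraries at 3.88 or more, and CL libraries between 0.451 and 5.17.

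Genes around the pathway were taken from lists of related function. Among the 14 phosphotransfer partners, which move high-energy phosphate or adenine nucleotides, C-3BO on chow gave 3 higher and 4 lower, C-3BO on HFD 5 and 0, CL on chow 5 and 1, and CL on HFD 4 and 0. For these and the next lists, the transgene on chow had 15.8% of all genes higher and 15.9% lower, and on HFD 19.3% and 15.5%, while CL had 9.16% and 6.13% on chow and 12.7% and 10.8% on HFD. Against them, 3 of 14 higher for C-3BO on chow is near the share of all genes. The lists are short and were not tested as sets, so a count not marked as near its share is not read as above it. Ak4, a mitochondrial adenylate kinase, was higher in all 4, by 1.73 ± 0.22, 1.99 ± 0.23, 1.69 ± 0.22 and 1.34 ± 0.25 on the log2 scale (adjusted p of 0.00014 or less). On chow Ak1 and the nucleotide carrier Slc25a4 fell with C-3BO by -0.77 ± 0.15 and -0.46 ± 0.10. Both are abundant in skeletal muscle, whose marker values are given beside Ckmt2, and the part of muscle in them was not tested. The median of the list was -0.20, 0.09, 0.23 and 0.18, beside medians within 0.04 of 0 for all genes.

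Tested genes that supply arginine and glycine, the substrates of Gatm, numbered 17. In the same order of comparisons, 1, 5, 2 and 2 of them were higher and 4, 4, 1 and 3 lower. Of these counts, 1 of 17 higher for C-3BO on chow is below the 15.8% of all genes. For CL, 2 of 17 higher is near the 9.16% on chow and the 12.7% on HFD, and 1 of 17 lower on chow is near the 6.13%. Psph, which makes serine, a source of glycine, rose in all 4, by 0.83 ± 0.19, 0.73 ± 0.19, 0.99 ± 0.19 and 1.15 ± 0.21. Oat, which joins ornithine and glutamate metabolism, fell with C-3BO on chow (-0.94 ± 0.09) and with CL on HFD (-0.57 ± 0.09). Phgdh, the first enzyme of serine synthesis, fell with CL by -2.05 ± 0.32 on chow and -1.61 ± 0.32 on HFD. Of 12 tested genes of methyl donor supply and use, which feed or compete with Gamt, 1, 3, 3 and 2 were higher and 2, 2, 1 and 2 lower. Of these counts, 1 of 12 higher for C-3BO on chow is below the 15.8% of all genes. For C-3BO, 2 of 12 lower is near the 15.9% on chow and the 15.5% on HFD. For CL on chow, 1 of 12 lower is near the 6.13%. Gnmt, which methylates glycine, was higher in all 4 (1.15 ± 0.35, 2.29 ± 0.37, 2.16 ± 0.36 and 1.32 ± 0.37), from a level of 1.07 to 2.63 CPM in the means of the controls. It was also higher in HFD saline than in HFD control (1.24 ± 0.39, adjusted p = 0.046). Liver markers were higher there (14 of 14) and in HFD C-3BO against HFD control (13 of 14), but in neither direction between HFD CL and HFD saline. The part of liver transcripts in Gnmt was not tested. Ahcyl2, a relative of the enzyme that clears S-adenosylhomocysteine, was lower in all 4 (-0.84 ± 0.11, -1.42 ± 0.12, -0.76 ± 0.11 and -1.34 ± 0.12). Nnmt, which methylates nicotinamide, rose on HFD by 1.71 ± 0.27 with C-3BO and 1.24 ± 0.28 with CL.

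Of 9 tested genes for other phosphatases and pyrophosphate handling, 1, 2, 0 and 0 were higher and 2, 2, 2 and 2 lower, with the 1 and 2 of 9 higher under C-3BO near the 15.8% and 19.3% of all genes. Phospho1, a phosphatase of phosphocholine and phosphoethanolamine that acts beside Alpl in bone, rose with C-3BO by 0.66 ± 0.14 on chow and 0.81 ± 0.14 on HFD, and gave 0.30 ± 0.15 (adjusted p = 0.14) with CL on HFD. Ank, a pyrophosphate exporter, fell with C-3BO by -0.48 ± 0.18 and -0.72 ± 0.19. Slc20a2, a phosphate importer, fell with C-3BO on HFD (-0.29 ± 0.11) and with CL on both diets (-0.44 ± 0.11 and -0.45 ± 0.11). Of 14 thermogenic reference genes, 6, 8, 6 and 7 were higher, beside 15.8%, 19.3%, 9.16% and 12.7% of all genes, and 1, 2, 0 and 0 lower. Ucp1, the uncoupling protein, rose by 2.38 ± 0.28, 1.52 ± 0.27, 1.90 ± 0.27 and 1.74 ± 0.27.

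The genes with the nearest pattern to each member over the 40 libraries are given as a description, since the libraries share groups and tissue admixture. For Alpl they were Cpne5, Pde7b, Col10a1, Slc29a1 and Cux1 (r of 0.9497 to 0.923). For Slc6a8 they were Ivns1abp, Lasp1, Gadd45b, Kif3c and Fras1 (0.951 to 0.923), and for Gamt Rbm38, Got2, Cacna1a, Lctl and Cst3 (0.880 to 0.844). Ckb had looser neighbours, Ninl, Oxct1, Stbd1, Sh3tc2 and Ddah2 (0.743 to 0.667), as did Gatm with Ehd4, Ecm1, Col5a1, Bcat1 and Adamtsl4 (0.731 to 0.707). Those of Ckmt2 were Klhl31, Mylk2, 3425401B19Rik, Tnni2 and Mylk4 (0.972 to 0.964), most of them genes of striated muscle. Among the members, Slc6a8 and Gamt ran together (r = 0.792), Alpl ran against both (-0.887 and -0.772), and Ckb was close to unrelated to Alpl (0.004) and to Gamt (-0.05).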

How the data were processed

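RNA from BAT, 40 libraries in 8 groups of 5, was sequenced by the authors from poly(A) libraries that do not mark strand, aligned to mm9 with STAR, and counted over exons of RefSeq genes with the HOMER and iRNA-seq tools. The deposited values are raw counts per gene with no normalization. Versions are not given in the sources used here. Groups and replicate numbers came from the labels. The study's methods give n as the number of animals per group, and the labels number the replicates without naming the mouse.

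Counts were tested with edgeR 4.0.16 (R 4.3.3): all 40 libraries, 1 mean per group, TMM factors, genes kept by filterByExpr at a minimum count of 10, quasi-likelihood F tests, and Benjamini-Hochberg adjustment over 13277 genes. SE is the fold change over the root of F. Ckmt1, below the filter, had an exact permutation test. DESeq2 1.42.0, other scalings and filters, a muscle score covariate, a replicate block and leaving out each library were alternatives. Scripts were tested on simulated data. Members and gene lists were chosen with earlier results of these data known. Named list genes are up to 3 per list and comparison with the smallest edgeR p, and nearest patterns are the 5 highest Pearson r of log2 CPM with a prior count of 2. No 2 libraries of a group agreed within sampling noise (lowest chi-square per degree of freedom 2.74). Promoters are RefSeq sequences of GRCm38.p6, searched as text.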

Additional observations from a re-analysis of the deposited data

Results flagged for a closer look

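Among 55 sets of 5 libraries (a member in a group), 7 held a library whose gap to its nearest neighbour took more than 0.71 of the range. For normally distributed values chance alone gives about 1 in 20. Sets with few counts, as for Ckmt1 and Ckmt2, need not follow that rate, so it cannot be set against the 7 flagged sets. Of these, 4 were Ckmt2: HFD control replicate 5 (1.91 CPM, next 0.481), HFD C-3BO replicate 5 (1.64, next 0.408), HFD saline replicate 3 (16.1, next 1.89) and HFD CL replicate 1 (3.19, next 0.825). In each of these 4 groups but HFD C-3BO, where Ckm ran from 0.564 to 4.10 CPM, the same library also had by far the most Ckm: 19.5, 201 and 63.1 CPM. Another 2 were Ckmt1 with a single count, in HFD control replicate 1 (0.0720 CPM) and HFD C-3BO replicate 5 (0.205 CPM), where the other 4 libraries had 0. The last was Gamt in chow control replicate 3 (19.03 CPM, next 11.5). Without that library Gamt fell with C-3BO on chow by 1.09 on the log2 scale.

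The effects of C-3BO and of CL on chow differed, by the test of the difference itself, for Ckb (-1.89), Slc6a8 (-1.27) and Alpl (0.79).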

How the results depend on the processing

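The calls for Alpl, Slc6a8 and Gamt under C-3BO on either diet, and for Ckb under C-3BO on chow, kept their side and direction in every fit that was run. Counts of members called moved by over 1.5 times in these fits. CL against saline on chow went from 3 to 1 with chow saline limited to replicates 2 and 3 (chosen after seeing the data), and HFD against chow in saline mice from 0 to 1 with library totals alone. HFD against chow in CL mice went from 2 to 1 with library totals alone, RLE factors, the libraries of the comparison alone, the muscle covariate or the replicate block. HFD against chow in control mice went from 2 to 1 with the 10-count filter in every library (which drops Ckmt2), the libraries of the comparison alone, library totals alone, no filter or the replicate block, and to 0 with the muscle covariate. Saline against control on chow went from 2 to 1 with that filter and to 0 with the covariate or the replicate block. The cause was not tested unless given. Leaving out each library gave 4 to 5 members for C-3BO on chow, 3 for C-3BO on HFD, 2 to 5 for CL on chow, 3 to 4 for CL on HFD, 1 to 2 for diet in control and in CL mice, 3 in C-3BO mice, 0 to 1 in saline mice, 2 to 3 for C-3BO against CL on chow, 2 for saline against control on chow and 1 to 3 on HFD, and 0 in the remaining interactions. For Ckmt1 the comparisons under 0.05 went from 0 to between 0 and 2.

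The log2 difference changed sign for uncalled values and for Ckmt2. Leaving out libraries, the range was -0.38 to 0.045 for Ckb and -0.31 to 0.076 for Gatm under C-3BO on HFD, -0.65 to 1.67 for Ckmt2 there, -3.42 to 0.19 for Ckmt2 under CL on HFD, -0.43 to 0.048 for the Ckb difference in CL effect between diets, and -0.031 to 0.22 for the Slc6a8 difference in C-3BO effect between diets. Without both HFD C-3BO libraries rich in liver transcripts, Ckmt2 was at -0.86 and Gatm at 0.086. Ckmt2 turned to 1.01 (CL on chow, the 2 saline libraries picked for low muscle transcripts) and 0.67 (HFD in C-3BO mice, muscle covariate).

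Deviations of same-numbered libraries correlated at over 0.1 in 3 of 5 pairs for C-3BO against control on chow (mean r 0.17, other pairs -0.041, 3 of 5 libraries best with their own number) and in 0 to 2 of 5 pairs elsewhere. No comparison had all 5, so the replicate block is an alternative only. Under the block, 5 members passed for C-3BO on chow, 3 for C-3BO on HFD, 2 for CL on chow and 4 for CL on HFD, where the block lost Gatm (-0.70, adjusted p = 0.084) and gained Ckb (0.497, adjusted p = 0.016). HFD saline, with as few as 849126 counts, has the widest counting error.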
